A study of Mus musculus with 11 samples.

Results

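The well-expressed noncoding transcripts of im-scWAT cells were taken as the transcripts that the deposited tables file as noncoding, on the sense strand, with the row that represents the symbol and an FPKM (expression per exon length and sequencing depth, here from mapped bases) of at least 10 in at least 1 of the 6 untransduced samples. Symbols of snoRNAs, microRNAs and histones, and symbols ending in -ps, were left out. This gave 124 of 29955 representative sense rows, or 124 of 6714 representative noncoding rows. Of the noncoding rows, 4919 were listed at an FPKM of 0 in all 11 samples. The members were thus selected on the FPKM of the 6 untransduced samples, and their levels and their changes over the time course are given as a description with no test. The 3 members nearest to the threshold were AB349695, AK160548 and 3930402G23Rik, each with a highest FPKM of 10.5. The nearest rows outside were AK205332, 2210403K04Rik and S60130 at 9.94, 9.81 and 9.78.

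The cells were mouse preadipocytes of inguinal subcutaneous white fat, immortalized by SV40 large T antigen, and RNA-seq was run on 11 samples. The 6 untransduced conditions had 1 sample each, at days 0, 4 and 8 of differentiation with or without rosiglitazone (ROS, a PPARγ ligand, 0.5 μM), and both arms received indomethacin, dexamethasone, IBMX, insulin and T3 as the induction medium. The 2 samples of day 0 had not yet been treated differently. The other 5 samples were cells at day 8 with ROS that carried a retroviral short hairpin against mouse Jmjd1a together with retroviral human JMJD1A, which was WT in 2 samples (WT A and WT B), or the S265A, S265D or S265D-H1120Y mutant in 1 sample each. All 11 samples share the large T antigen, and the 6 untransduced samples lack the hairpin. The sample labels have ROS taken away at day 7, whereas the study's methods keep it to day 8.

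Between 3.10 and 5.29 Gb of mapped bases per sample lay behind the FPKM, and at least 9108 mapped bases behind the highest value of any member. The summed FPKM of 8 adipocyte markers was 282 to 285 at day 0 and 9703 to 34641 in the other 9 samples, while markers of endothelium (sum at most 4.00) and epithelium (at most 0.689) were near 0. Leukocyte markers summed to at most 21.8, in S265D-H1120Y, where Cd68 alone had 21.7. Ptprc and Emr1 were at 0 in all 11 samples. Of 4 skeletal muscle markers, Myod1 and Myog were at 0 in all 11 samples, and the list, with Des and Acta1, summed to 0.660 to 0.807 at day 0 and 4.11 to 31.6 in the other samples. The 8 markers of preadipocytes and fibroblasts summed to 981 to 1058 at day 0 and 198 to 789 in the other samples, and their part in the changes over time was not tested. The mouse Kdm3a row, which is Jmjd1a, had an FPKM of 21.1 at day 8 with ROS and of 20.4, 17.9, 13.03, 23.0 and 28.5 in WT A, WT B and the S265A, S265D and S265D-H1120Y mutants. Reads of the human transgene could fall on this row, so the knockdown cannot be read from it. Cells of a type and RNA per cell cannot be told apart in bulk samples, so a lower value may be fewer cells or less RNA per cell. Nothing in the labels says that WT A and WT B came from separate cultures, so p-values measure the spread between these samples, which may be technical.

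Noncoding RNAs in a transcript table are of several kinds. snoRNA host genes are spliced transcripts whose introns hold small nucleolar RNAs, which guide the chemical modification of ribosomal RNA, and many of them start with a pyrimidine tract like that of ribosomal protein mRNAs. Some other long noncoding RNAs (lncRNAs) are found in nuclear bodies, as Malat1 is in speckles and Neat1 in paraspeckles. Processed pseudogenes are copies of spliced mRNAs that were inserted elsewhere in the genome. Reads that fit a copy and its parent mRNA equally well can be placed on either.

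The label noncoding was checked against the mm9 genome, the GENCODE vM1 annotation and RefSeq names at 50% overlap or a name match, and fewer rows than the label implies were annotated noncoding genes. Of the 124 rows, 18 were snoRNA hosts and 20 were other annotated lncRNAs, while 9 were mitochondrial. Among hosts and lncRNAs the sources disagree on 3 rows. 1810032O08Rik among the hosts and 3930402G23Rik and 3110039M20Rik among the lncRNAs are lncRNAs in RefSeq and protein-coding in GENCODE vM1. A further 32 rows were copies of an mRNA or annotated pseudogenes, 27 lay in exons of a protein-coding gene or carried a name that RefSeq files as coding, and 18 fell in none of these classes. The 124 rows stand for 119 loci, since 5 pairs overlapped by position (Oaz1 with AK087942, Neat1 with AK148054, Snhg1 with AK036616, BC096391 with BC025067, and Cytb with BC071253). Strand was not compared here, so whether the rows of a pair share reads was not tested. Of the rows, 71 had a single exon and 73 were at an FPKM of 10 or more in all 6 untransduced samples. In all, 14 members reached 10 in only 1 sample, 8 only at day 0 and 28 only at day 4 or 8, and 78 were at 10 or more in all 5 transduced samples.

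**Figure D1:**
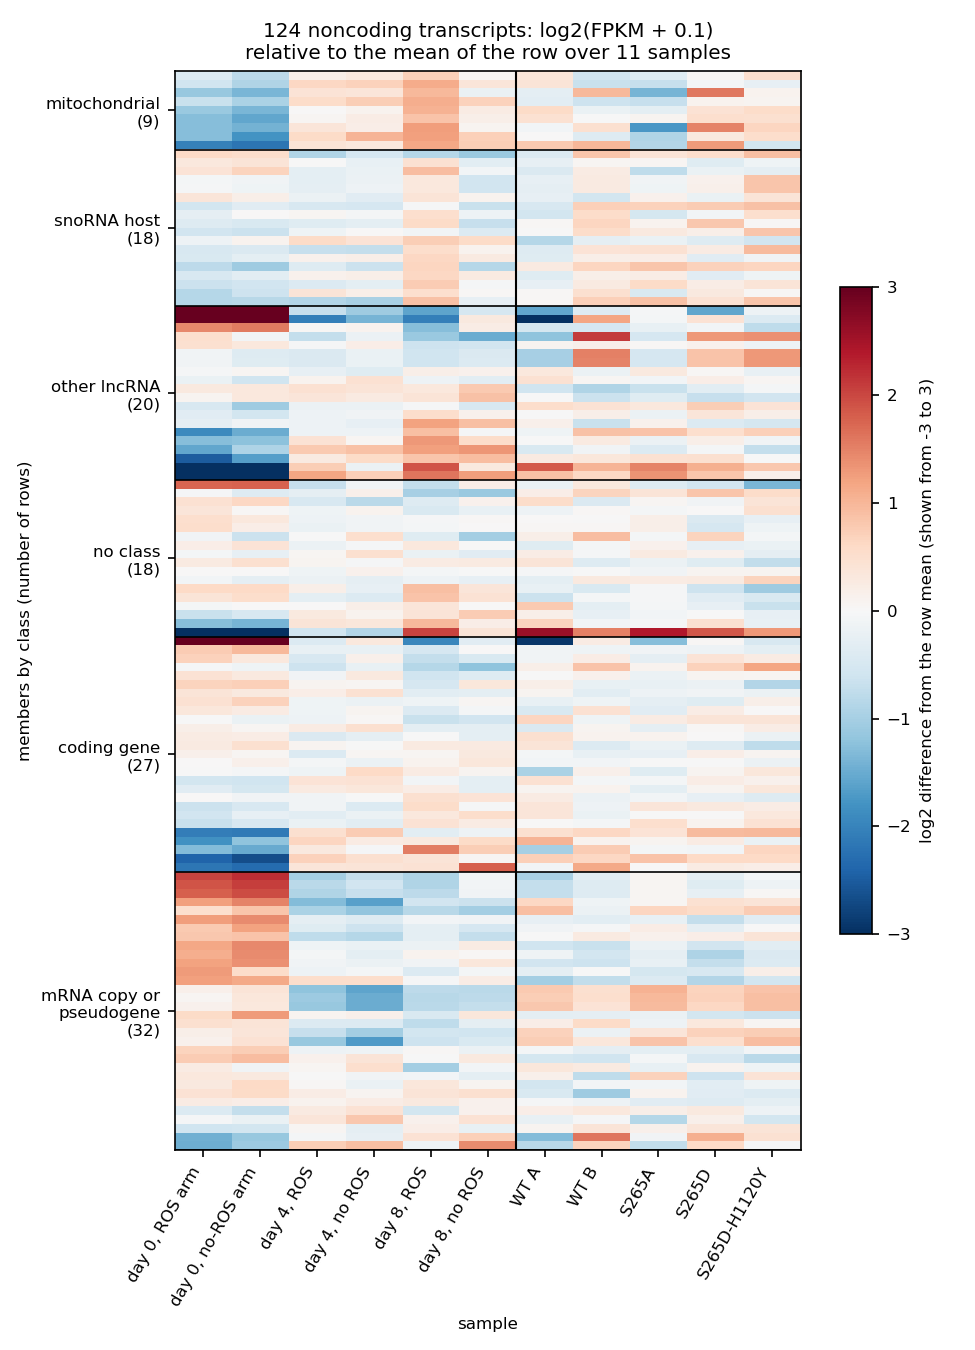
Each row is 1 of the 124 members and each column 1 of the 11 samples, with colour for the log2(FPKM + 0.1) minus the mean of the row. Classes are separated by black lines, with rows sorted by their log2 ratio of day 8 over day 0. All 9 mitochondrial rows were lowest at day 0 among the untransduced samples, and the 18 snoRNA hosts were higher at day 8 with ROS than without.

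The sequences below carry 2 of the patterns described. The first set shows the starts of snoRNA hosts, from RefSeq, 12 bases before and 25 after the annotated start, with capitals for a tract of C followed by at least 4 further C or T bases that begins within 5 bases of the start.
Gas5 (GRCm38.p6, chr1:161035154-161035190, plus strand): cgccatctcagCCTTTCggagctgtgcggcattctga
Snhg7 (GRCm38.p6, chr2:26640220-26640256, minus strand): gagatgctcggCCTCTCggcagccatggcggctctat
1110038B12Rik (GRCm38.p6, chr17:34952444-34952480, minus strand): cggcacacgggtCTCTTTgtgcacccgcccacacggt
Snhg12 (GRCm38.p6, chr4:132308666-132308702, plus strand): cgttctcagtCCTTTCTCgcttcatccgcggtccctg
2410006H16Rik (GRCm38.p6, chr11:62602865-62602901, plus strand): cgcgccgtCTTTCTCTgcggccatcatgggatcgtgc
Snhg1 (GRCm38.p6, chr19:8723475-8723511, plus strand): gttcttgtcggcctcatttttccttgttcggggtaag

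Of the 11 host genes with a start in the RefSeq table, 6 had this tract within 5 bases of a start, and 18.3% of all 32851 promoters in the table had it. A C at the start base with at least 4 C or T bases behind it was found in 3 host genes (Gas5, Snhg7 and 1110038B12Rik) and in 2.51% of all promoters. Snhg1 is shown as a host without the tract by this rule. Gas5 and 1110038B12Rik have 2 annotated starts each, and the start shown is the second. Among 9 other lncRNAs with a start in the table, 3 had the tract (1700020I14Rik, Gm12603 and 2810001G20Rik). These 3 also had a C at the start base with at least 4 C or T bases behind it, so this is not particular to hosts. A match is a description of the letters and not a site.

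The second set shows stretches of copies beside their parent mRNAs, inside the coding part of the parent and in its orientation, with capitals for bases of the member that differ from the parent.
AK195420 (mm9, chr7:59002873-59002992, plus strand): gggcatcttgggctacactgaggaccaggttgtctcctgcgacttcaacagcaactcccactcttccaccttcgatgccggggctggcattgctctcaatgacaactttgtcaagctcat
BC002163 (mm9, chr16:42955824-42955943, plus strand): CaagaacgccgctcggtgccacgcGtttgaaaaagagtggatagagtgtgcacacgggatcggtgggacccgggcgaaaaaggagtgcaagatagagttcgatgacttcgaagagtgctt
Ndufs5 mRNA over the same stretch: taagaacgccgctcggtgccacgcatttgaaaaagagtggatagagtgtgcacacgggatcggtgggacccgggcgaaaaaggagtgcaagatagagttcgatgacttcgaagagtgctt

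Of the copies, 26 matched a named parent mRNA at 90% identity or more over at least 80% of their length. In 19 of them a coding stretch of 107 to 409 bases could be laid beside the parent, and 15 of the 19 were identical to it at every base. The stretch shown for AK195420 is shared letter for letter by AK186650 and AK195788, 2 other rows that match Gapdh. Within copies and pseudogenes 24 rows were found at more than 1 genome locus at 95% identity, and the sequence of AK195420 had 37 such loci.

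Mitochondrial rows included the most abundant members and were higher after differentiation. DQ539915, which is mt-Co1, the catalytic subunit of cytochrome oxidase, had an FPKM of 4286 and 3529.8 at day 0, 10971 and 12203 at day 4, and 18770.3 and 11883 at day 8, with the ROS arm given first here and below. Cox2, which is mt-Co2, had 3541 and 2937, then 7725 and 8287, then 15719.6 and 9127 at days 0, 4 and 8. The small ribosomal RNA of the mitochondrion, mt-Rnr1, is the row AK140265, at 159 and 142, then 844 and 804, then 1457 and 1079. These rows were lowest at day 0 in both arms and highest at day 8 with ROS, with no overlap between day 0 and later days.

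All 9 mitochondrial rows were higher at day 8 than at day 0 in both arms, 8 of them by 2-fold or more (beside 14.4% of all transcripts that reached an FPKM of 1), with log2 ratios from 0.98 to 3.06 and a median of 1.89. At day 8 all 9 were also higher with ROS than without, by a median log2 ratio of 0.66, beside -0.18 over all tested transcripts. But they were also higher in the ROS arm at day 0 before any ROS, by a median of 0.27. Their share of all mapped bases went from 1.34 to 1.66% at day 0 to 6.32% at day 8 with ROS and 3.99% without. The other members together held 0.389 to 0.678% of the bases in any sample.

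For 2 of the mitochondrial rows, AK141672 over mt-Nd3 and BC071253 over mt-Nd5, which encode subunits of respiratory complex I, most bases lay on the antisense row of the same transcript, with 94.95% and 95.98% of the bases of both strands. AK141672 had an FPKM of 13.5 and 12.2 at day 0, 42.2 and 37.8 at day 4, and 78.4 and 34.6 at day 8, a log2 ratio of 1.18 with ROS at day 8. BC071253 had 15.2 and 13, then 44.6 and 43.2, then 66 and 29.2, a log2 ratio of 1.17. Atpase6 is placed on chromosome 1 in the files, but its 842 bases are found unchanged at 2 loci, of which the other is mitochondrial, so reads of the 2 loci cannot be told apart.

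**Figure D2:**
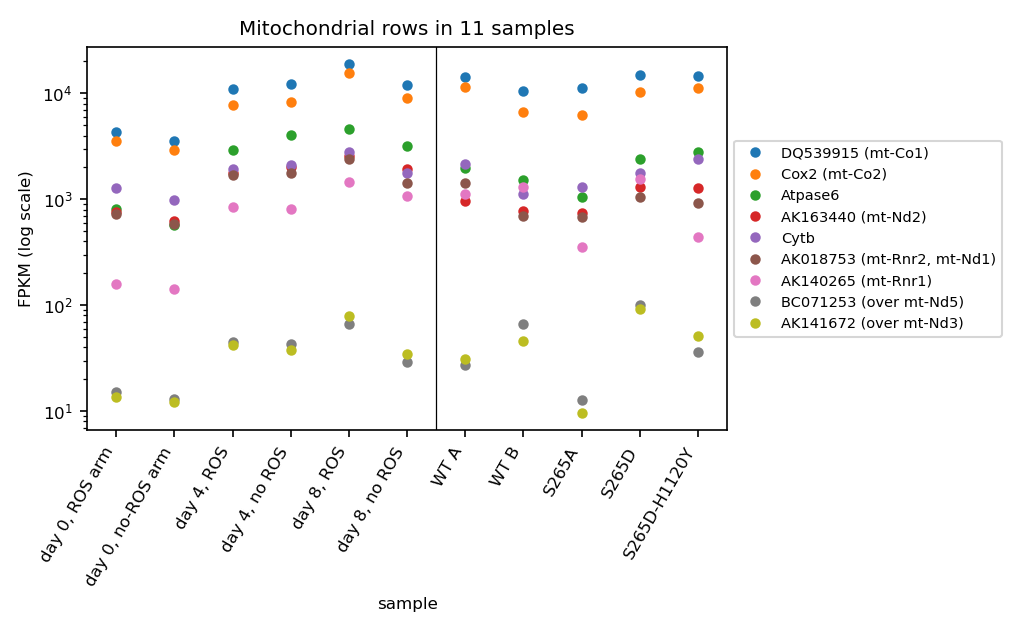
FPKM (log scale) of the 9 mitochondrial rows in the 6 untransduced and 5 transduced samples, 1 point per row and sample. DQ539915 went from 3530 at day 0 to 18770 at day 8 with ROS, and AK141672 and BC071253 were lowest among the transduced samples in S265A, at 9.68 and 12.7.

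snoRNA host transcripts were higher with ROS at day 8. All 18 rows, at 16 loci, had a higher FPKM with ROS than without at day 8, with log2 ratios from 0.16 to 1.50 and a median of 0.64, whereas the median over the 12493 transcripts that reached an FPKM of 1 was -0.18. At day 4 the 18 rows were split into 9 above and 9 below 0, with a median of -0.02, and in the day 0 pair into 7 above and 11 below. In 17 of 18 rows the log2 ratio of the ROS arm was higher at day 8 than at day 4. Each condition had 1 sample, so this difference has no replicate check. These samples also chose the members, so nothing is read from the count of rows above 0. The share of all transcripts above 0 was not counted. The same 2 samples of day 8 held the highest and lowest sums of 2 marker lists in the time course after day 0. Adipocyte markers summed to 34641 with ROS and 9703 without, preadipocyte and fibroblast markers to 198 and 789, and 6 beige markers to 255 and 50.6. The part of these differences in the host values was not tested.

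2410006H16Rik, with 3 snoRNA genes inside, had an FPKM of 39.3 and 40.4 at day 0, 38.9 and 36.6 at day 4, and 131 and 60 at day 8. AK010403 had 8.77 and 7.26, then 11.7 and 9.71, then 23.8 and 8.38, and Snhg7 had 6.48 and 6.15, then 6.6 and 6.88, then 12.6 and 5.26. These 3 hosts differed by less than 2-fold between arms at days 0 and 4 and by more than 2-fold at day 8. At day 8, 2.4% of all transcripts were 2-fold higher, and AK011460 just missed 2-fold at a log2 ratio of 0.99. Snhg7 reached an FPKM of 10 only at day 8 with ROS, so the member rule itself selected for that high value.

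Gas5, a host of 9 annotated snoRNAs that is named for its rise in growth arrest, was lower after day 0. Its FPKM was 42.4 and 40.3 at day 0, 15 and 19.7 at day 4, and 15.4 and 12.9 at day 8, a mean log2 ratio of -1.55 that was the lowest among the hosts, beside 10.1% of all transcripts that were 2-fold lower. No host other than Gas5 differed 2-fold between day 8 and day 0 in both arms to the lower side, and none to the higher side. In the transduced samples Gas5 had 20.9, 49.6, 36.7, 40.2 and 52.5 in WT A, WT B and the S265A, S265D and S265D-H1120Y mutants. Snhg6 had 48.2 at day 8 with ROS and 35.7, 82, 80.1, 83.7 and 92 in the same order.

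Of the 23 snoRNA host symbols on the list used here, 11 were in the files and 7 were members (Gas5, Snhg1, Snhg3, Snhg6, Snhg7, Snhg12 and 1110038B12Rik). The remaining hosts were recognised from snoRNA genes inside their spans. 1110038B12Rik was the most abundant, at 116 and 122 at day 0, 92.6 and 79.3 at day 4, and 127 and 74.6 at day 8. Snhg1, with 8 snoRNA genes inside, had 25.8 and 24.8, then 21.8 and 23.5, then 33.5 and 17.9. The host rows followed the nearest protein-coding gene little, with a median Pearson r of 0.27 over the 11 samples and a highest r of 0.72.

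**Figure D3:**
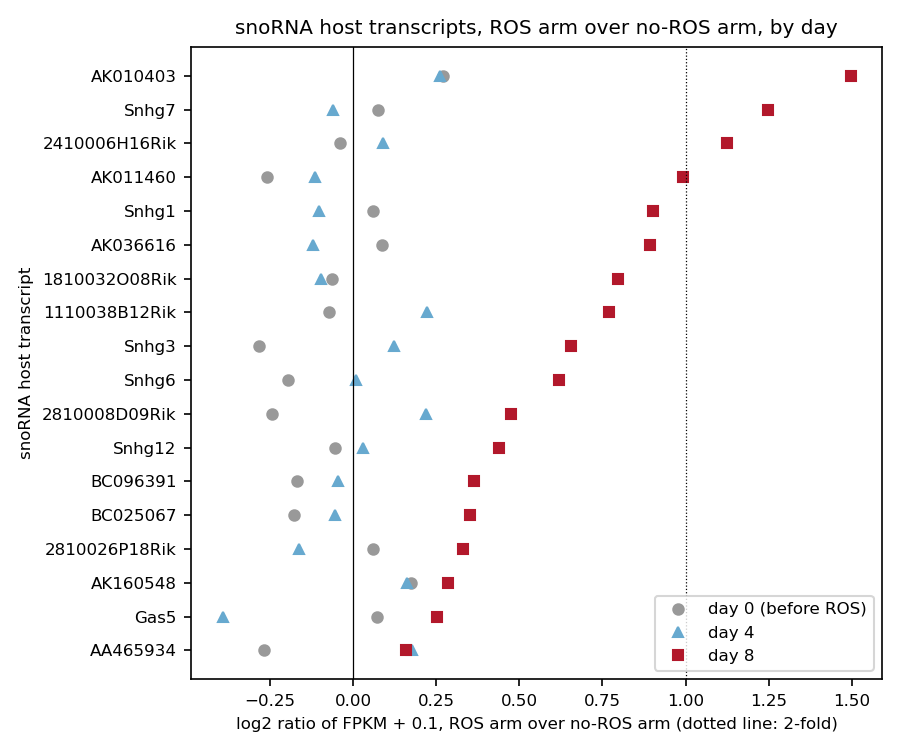
Log2 ratio of FPKM + 0.1 in the ROS arm over the no-ROS arm for the 18 snoRNA host rows, at day 0 before ROS (grey circles), day 4 (blue triangles) and day 8 (red squares), 1 sample per arm and day. All 18 red squares lie above 0, from 0.16 to 1.50.

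Malat1 was lower at day 8 than at day 0, Neat1 was nearly level, and both differed between the WT samples. Malat1 (chr19:5795690-5802671, mm9, single exon) had an FPKM of 84.7 and 56.6 at day 0, 36.5 and 52.6 at day 4, and 27.6 and 21.1 at day 8, a mean log2 ratio of -1.52 for day 8 over day 0. Neat1 had 63.9 and 53.2, then 50.8 and 59.8, then 45.4 and 51.5. In the transduced samples Malat1 had 25.8, 256, 42.3, 147 and 154 in WT A, WT B and the S265A, S265D and S265D-H1120Y mutants. Neat1 had 34.6, 196, 48.7, 126 and 170.0 in the same order. For both RNAs the WT pair spanned the 3 mutants, so WT B lay above and WT A below every mutant sample. Both were lower in WT A and S265A than in WT B, S265D and S265D-H1120Y. A mutant set against the WT mean is thus set against samples on both sides of this split, and its cause was not tested.

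Of the 20 lncRNA rows, with Malat1 and Neat1 included, 7 were 2-fold higher and 4 lower at day 8 than at day 0 in both arms. Of all tested transcripts, 14.4% were 2-fold higher and 10.1% lower. The rows named here and in the next paragraph were taken from the extremes. Gm12603 (Wincr1) had an FPKM of 12.7 and 16.6 at day 0 and at most 1.24 at days 4 and 8. AK199694, in the annotated lncRNA Gm2115, had 11.4 and 13.8 at day 0 and at most 0.548 later. 3110039M20Rik went from 9.99 and 10.9 to 1.43 with ROS and 4.25 without ROS at day 8. Each of the 3 was below 5 in every sample of days 4 and 8. Each thus reached 10 only at day 0, and the member rule itself selected for that higher value.

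In the other direction, AK019114, in the annotated lncRNA 2400009B08Rik, had 3.22 and 2.74 at day 0, 138 and 98.8 at day 4, and 183 and 145 at day 8. 3930402G23Rik had 0.0149 and 0.0449, then 4.67 and 2.42, then 10.5 and 3.38. AK155516, which has no class, was listed at 0 in both day 0 samples and had 2.44 and 2.01 at day 4 and 15.6 and 4.97 at day 8, and no fold is given for it against day 0. Gm4013 had 0.924 and 1.75, then 6.89 and 8.53, then 10.2 and 10.9. At day 8 the log2 ratio of ROS was 1.63 for AK155516 and -0.09 for Gm4013. All rows of this paragraph were below 10 at day 0, so the member rule selected for their later values.

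Lists of lncRNAs with described roles held few members besides these. 2900097C17Rik (Norad), which binds Pumilio proteins, had an FPKM of 41.5 and 36.9 at day 0, 28.8 and 33.9 at day 4, and 19.2 and 19.8 at day 8. 1700020I14Rik (Oip5os1, also called Cyrano) had 14.9 and 9.87, then 18.4 and 18.3, then 20.2 and 14.8. Tug1 had 11.5 and 8.61, then 14 and 18.1, then 11.7 and 10.5. Neither of the last 2 was 2-fold apart between day 8 and day 0. No member came from the lists of 18 imprinted noncoding RNAs, 4 RNAs of the X inactivation centre, 40 structured RNAs of the basic RNA machinery or 15 microRNA hosts. On those lists 12, 2, 20 and 4 symbols were in the files, and 6, 2, 20 and 2 of them were filed as noncoding. The 2 noncoding microRNA hosts, Mir17hg and Mirg, have symbols that the member rule left out. The rule thus fixed the absence of microRNA hosts.

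Rows that copy an mRNA were mostly lower after differentiation, and 25 of 26 had the same direction as their parent mRNA. Several of the 26 share a parent, such as the 3 that match Actg1, so the rows are not independent. Reads of a copy identical to its parent cannot be told apart from those of the parent, so nothing is read from this count. Of the 32 copies and pseudogenes, 24 were lower at day 8 than at day 0 in both arms, 10 of them by 2-fold or more (beside 10.1% of all tested transcripts), and 2 were higher by 2-fold or more (beside 14.4%). The median log2 ratio was -0.99, beside -0.06 over all tested transcripts, and the share of all transcripts below 0 was not counted. The lowest ratios were those of 3 copies of Actg1, a cytoskeletal actin, at -2.47, -2.31 and -2.62, beside -2.25 for Actg1. AK209715 had an FPKM of 724 and 822 at day 0, 111 and 131 at day 4, and 104 and 185 at day 8. Actg1 itself had 1443 and 1518, then 223 and 270.5, then 239 and 408.

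AK203176, which matches the tubulin mRNA Tuba1b, had 449.6 and 506 at day 0, 182 and 172 at day 4, and 179.9 and 248 at day 8. EF437368, which matches the elongation factor Eef1a1, had 893 and 921, then 301 and 283, then 415 and 308, and was the most abundant copy. AK187054, which matches the chaperone Hspa8, was nearly level, at 338 and 324, then 304 and 332, then 348 and 307. Across the 26 copies with a parent, the median over the untransduced samples of copy FPKM over parent FPKM was 0.0051 to 0.492. In single samples this ratio went from 0.0021 (Gm6548) to 0.758 (AK199495). Pearson r between log2 values of copy and parent over the 11 samples had a median of 0.94 (16 of 26 at 0.9 or more). In 23 of 26 the log2 ratio of day 8 over day 0 was lower in the copy than in the parent. The lowest r were -0.23 for Gm6548 and Eef1a1 and 0.21 for Rps19-ps3 and Rps19, copies with 95.3% and 95.4% identity. The points of these correlations share libraries, and where a copy is identical to its parent their reads cannot be told apart.

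Gapdh copies stood out in the transduced samples. AK195420 had an FPKM of 144 and 165 at day 0, 60.1 and 47.1 at day 4, and 74.8 and 80.8 at day 8, and 233, 175, 255, 203 and 246 in WT A, WT B and the S265A, S265D and S265D-H1120Y mutants. Gapdh itself, a glycolytic enzyme, had 2183 at day 8 with ROS and 5191, 4135, 5860.0, 5138 and 5617 in the same order. All 5 transduced samples were above the untransduced day 8 sample for both.

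Mx2, an interferon-induced GTPase gene that RefSeq files as a transcribed pseudogene, had 5.98 and 7.84 at day 0, 28 and 31.4 at day 4, and 15.1 and 44.6 at day 8, a log2 ratio of -1.56 with ROS. H2-K2, of the major histocompatibility complex, had 2.67 and 3.32, then 7.03 and 6.21, then 9.94 and 12.3. In the transduced samples H2-K2 had 2.93 in WT A and 22.7 in WT B.

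Most rows inside protein-coding genes followed those genes. Of the 27 rows, 22 held no coding bases of the gene as annotated in GENCODE vM1. These include 1810058I24Rik and 2210013O21Rik, which GENCODE vM1 files as noncoding and RefSeq as coding. In all, 21 rows could be set beside a host row, with a median r of 0.93 over the 11 samples and 12 of 21 at 0.9 or more. The lowest r were 0.10 for AK019262 and Sfpq, 0.47 for EF437385 and Purb, and 0.48 for AK197526 and Rab7, and 18 of 21 had the direction of their host at day 8 over day 0. BC134356, in an exon of Dpysl3, went from an FPKM of 40.2 and 38.6 at day 0 to 0.861 and 2.88 at day 8, while Dpysl3 went from 35.2 and 32.8 to 1.01 and 2.56. BC024571, in Itga6, an integrin subunit, went from 2.85 and 2.36 to 20.4 and 16.1, while Itga6 went from 3.35 and 2.86 to 24.0 and 19.1. Oaz1, which encodes the ornithine decarboxylase antizyme through a programmed frameshift, was filed as noncoding and had 407 and 472 at day 0 and 405 and 407 at day 8. AK087942 overlaps Oaz1 and had 186 and 215 at day 0 and 184 and 185 at day 8.

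**Figure D4:**
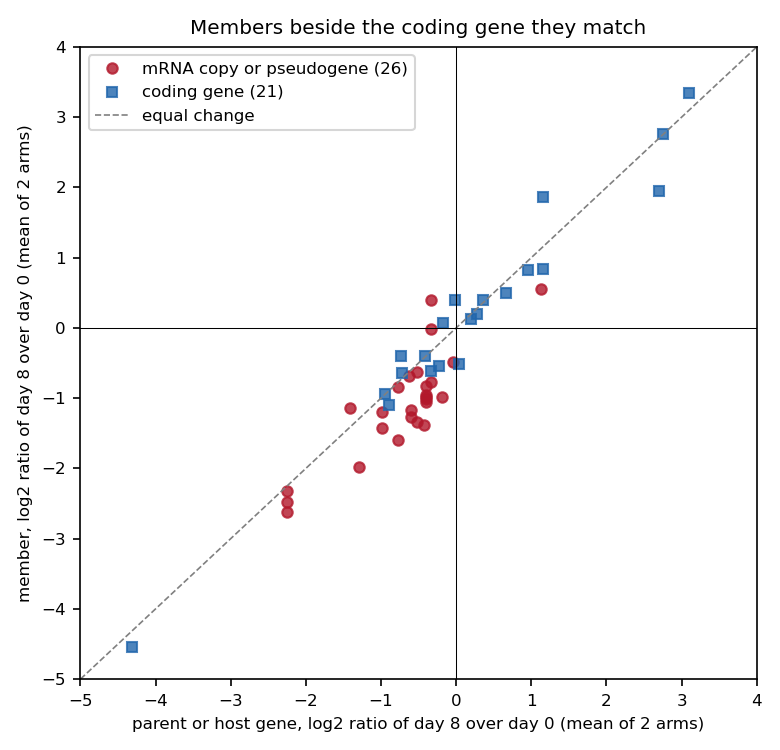
Log2 ratio of day 8 over day 0 (mean of the 2 arms) of a member against that of the coding gene it copies (26, circles) or lies in (21, squares), with a dashed line of equal change. BC134356 and Dpysl3 sit at the lower left, and 23 of the 26 circles lie below the line.

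Of the 18 rows without a class, 16 had a coding neighbour in the files, and 5 of these followed it with r of at least 0.9. AK192544 lay 147 bases beyond the end of Fads2, a fatty acid desaturase, and had an FPKM of 98.4 and 109 at day 0, 50.6 and 40.3 at day 4, and 54.6 and 77.9 at day 8. Fads2 itself had 109 and 114, then 54.5 and 49.3, then 63.7 and 84.7 (r = 0.99). AB350566 lies within Pdpr (r = 0.99), and AB349695, DQ716436 and AK164875 lie 1148, 1551 and 1948 bases beyond the ends of Mdm4, Eif4ebp2 and Lnpep (r = 0.97, 0.92 and 0.93). None of the 20 lncRNA rows and 18 host rows reached an r of 0.9 with its neighbour, and AK199694 and its neighbour Fah went in opposite directions (r = -0.93). AK139528, a sequence found at 633 genome loci at 95% identity, was nearly level, from 9.55 to 11.6 in all 11 samples.

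Counted over all members, 22 (17.7%) were at least 2-fold higher and 21 (16.9%) lower at day 4 than at day 0 in both arms, beside 12.4% and 10.4% of the 12844 transcripts that reached an FPKM of 1. At day 8, 25 members (20.2%) were higher and 17 (13.7%) lower, beside 14.4% and 10.1% of 13041 transcripts. Without the mitochondrial rows the 25 became 17. ROS at day 4 left 0 members 2-fold apart, beside 0.333% higher and 0.78% lower of all transcripts. At day 8 ROS left 7 members higher (5.65%) and 6 lower (4.84%), beside 2.4% higher and 9.1% lower of all. With each sample divided by a scaling factor the split was 11 higher and 5 lower. These samples chose the members, so nothing is read from the counts. In the day 0 pair 0 of 124 members were 2-fold apart.

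The values of the transduced samples did not choose the members, but the untransduced day 8 sample with ROS they are set against here did, so nothing is read from the counts that follow. All 5 were at least 2-fold above the untransduced day 8 sample with ROS in 4 members (beside 3.66% of 13139 transcripts) and at least 2-fold below it in 3 (beside 1.17%). The 4 were AK186650, AK195420 and AK195788, which match Gapdh, and AB349695. AB349695 had an FPKM of 4.65 at day 8 with ROS and 10.8, 15, 12.4, 16.8 and 13.8 in the 5 transduced samples. The 3 lower members were AK136742, 2010320M18Rik and C030044B11Rik. 2010320M18Rik had 20.7 at day 8 with ROS and 9.87, 5.54, 9.74, 6.68 and 6.11 in the same samples. With each sample divided by a scaling factor the split was 6 higher and 1 lower. With 1 untransduced sample, neither count has a replicate check.

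**Figure D5:**
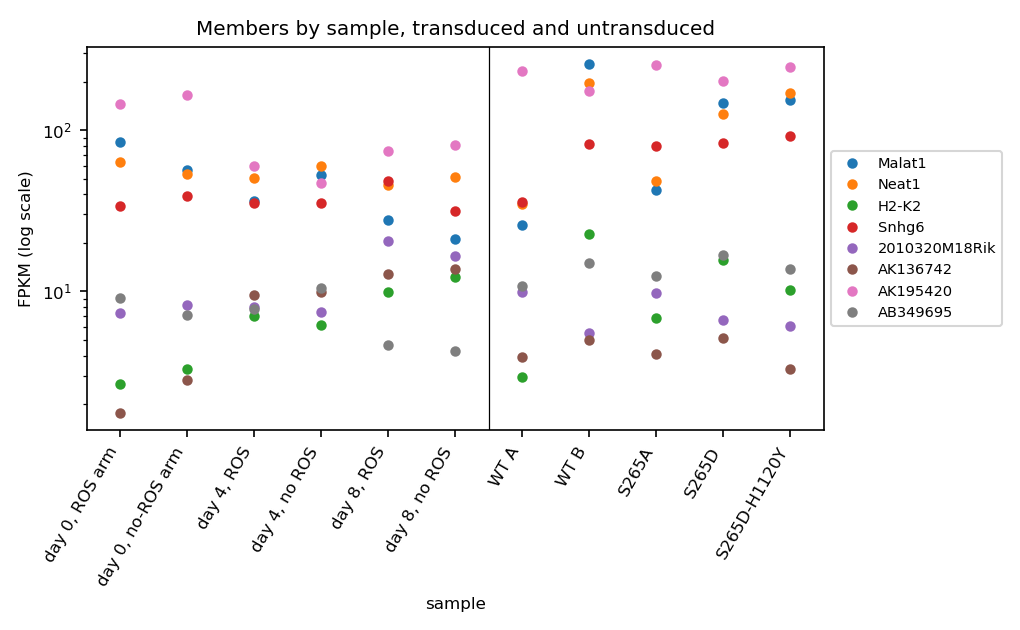
FPKM (log scale) of 8 members in the 6 untransduced and 5 transduced samples, 1 point per sample. Malat1 and Neat1 were at 25.8 and 34.6 in WT A and at 256 and 196 in WT B, and AK195420 was higher in all 5 transduced samples than at day 8 with ROS.

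The mutants address whether the phosphorylation site S265 and the demethylase activity of JMJD1A matter for expression. S265A over WT and S265D over WT share the WT samples. WT B and WT A themselves were 2-fold apart in 20 members, 16 of them higher in WT B (beside 11% of 12801 transcripts) and 4 lower (beside 7.71%). The largest were Gm12603, from 0 to 2.37, Malat1, from 25.8 to 256, and BC134356, from 0.394 to 4.34. The snoRNA hosts were higher in WT B than in WT A in 17 of 18 rows, with a median log2 ratio of 0.55, beside 0.04 over all tested transcripts. The share of all transcripts above 0 was not counted. The marker lists also differed between WT A and WT B, with adipocyte sums of 14908 and 29340.0, preadipocyte and fibroblast sums of 310 and 776, and beige sums of 268 and 30.8. Their part in the differences of the WT pair was not tested.

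S265A was at least 2-fold above the WT mean in 1 member (beside 1.79% of 12896 transcripts) and below it in 3 (beside 1.78%). The 3 were mitochondrial, and for AK141672 and BC071253 among them most bases lay on the antisense row, which no comparison used. AK140265 had an FPKM of 352 in S265A against 1123 and 1296 in WT A and WT B, AK141672 had 9.68 against 31.1 and 45.7, and BC071253 had 12.7 against 27.2 and 65.8. All 3 were below both WT samples by 2-fold or more (beside 0.403% of all tested transcripts), and by limma AK140265 and AK141672 passed an unadjusted p of 0.05. The log2 ratios were -1.78 ± 0.47 (SE), -1.95 ± 0.51 and -1.73 ± 0.70, and the adjusted p of limma was 1.00 for each. Over all 9 mitochondrial rows the log2 ratio of S265A over WT was below 0 in 9, with a median of -0.55, while WT B was above WT A in 3 and below it in 6. The median of S265A over WT was 0.01 over all tested transcripts, and the share below 0 was not counted. The mitochondrial rows share 1 genome and are not independent. The 1 higher member, by a ratio that rests on the pseudocount, was Gm12603, which was 0.940 in S265A, 0 in WT A and 2.37 in WT B.

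S265D was at least 2-fold above the WT mean in 4 members (beside 2.51% of 12928 transcripts) and below it in 0 (beside 1.04%). AK141672 had an FPKM of 92.4 in S265D and was 2-fold above both WT samples (beside 0.541% of all tested transcripts). BC071253 had 101 in S265D, beside 27.2 and 65.8. These are sense values, and the antisense rows of AK141672 and BC071253, which hold most of their bases, were not compared. All 9 mitochondrial rows were above the WT mean, with a median log2 ratio of 0.38, beside 0.01 over all tested transcripts. The share of all transcripts above the WT mean was not counted. Gm12603 and BC134356, at 1.37 and 3.74 in S265D, were above WT A and below WT B. S265D-H1120Y was 2-fold above S265D in 2 members (beside 2.39% of 12645 transcripts) and below it in 2 (beside 4.53%), which were AK140265, at 441 against 1570, and BC071253, at 36.3 against 101. The 2 higher were AK199694, at 0.725 against 0.214 with 1247 and 398 mapped bases behind the values, and AK217854, at 20.3 against 9.92.

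By limma on log2(FPKM + 0.1) with 1 residual degree of freedom, 0 of 123 tested members and 0% of all tested transcripts passed an adjusted p of 0.05 in each of the 3 comparisons. At an unadjusted p of 0.05, limma gave 2 members and 69 transcripts for S265A over WT, 0 and 58 for S265D over WT, and 1 and 173 for S265D-H1120Y over S265D. A p that misses the threshold does not show that the mutants act like WT, and the 95% interval of AK140265 for S265A over WT went from -3.04 to -0.51. With WT A as the only control and the spread from the day 0 pair, 3 members passed an adjusted p of 0.05 for S265D by limma (BC134356 at a log2 ratio of 2.96 and AK141672 at 1.57, with adjusted p of 0.0394 and 0.0485, and Gm12603 with an adjusted p of 0.0437), beside 5.1% of 12737 transcripts. Gm12603 was listed at 0 in WT A, so its ratio rests on the pseudocount and is not given. In the day 0 pair the median absolute log2 ratio of the members was 0.19, and 0 of 124 were 2-fold apart. In the WT pair this median was 0.45, and 20 members were 2-fold apart. The adjusted p of this fit thus do not measure the spread between the transduced samples, and nothing is read from them. With WT B as the only control, the log2 ratio was -0.21 for BC134356, 1.02 for AK141672 and -0.75 for Gm12603.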

How the data were processed

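Total RNA of 11 im-scWAT samples was sequenced by the authors from TruSeq libraries on an Illumina HiSeq. The authors aligned the reads with BWA to UCSC transcripts and mm9, kept the best alignment, realigned locally and calculated strand-specific FPKM per transcript. The authors deposited FPKM with its log10 and its log2, and a coverage signal given as mapped bases. The FPKM was used throughout, and mapped bases only for depth. Samples were not pooled. How reads that fit several loci were shared is not given in the sources used here.

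The members and gene lists were chosen with earlier results of these data known. Groups came from the sample labels. Ratios are differences of log2(FPKM + 0.1), and a transcript counted as 2-fold apart only when every ratio of the comparison passed 2-fold (both arms over time, all 5 transduced samples against the untransduced one). Percentages over all transcripts use representative sense rows with an FPKM of at least 1 in a sample of the comparison. Mutants were tested with limma 3.58.1 in R 4.3.3 on the 5 transduced samples, with Benjamini-Hochberg adjustment over all tested transcripts at 0.05, and the script was first tested on simulated data. Rows were classed by overlap with GENCODE vM1 on mm9, by RefSeq names (37 matched) and with blastn 2.17.0+ at 90% identity over 80% of the length. RefSeq starts are on GRCm38.p6. Python 3.11.15, numpy 2.4.6, pandas 2.3.3 and matplotlib 3.10.9 were used. The genes named are members of the lists, the 12 most abundant members, the extremes of each comparison and the members nearest to the threshold, and others named in the text were chosen after their values were seen. Alternatives changed the pseudocount, the scaling, the row per symbol, the FPKM minimum, the arms required, the spread of the fit and the WT sample. Some sequences and a neighbouring gene are not reported here.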

Additional observations from a re-analysis of the deposited data

Results flagged for a closer look

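Signal outside the sense rows was seen for 2 members. For BC071253, 95.98% of the mapped bases of both strands lay on its antisense row, which the comparisons did not use, and for AK141672 this was 94.95%. The antisense row had an FPKM of 363 to 1642 over the 11 samples for BC071253, with a median of 1119, and of 211 to 2144 for AK141672, with a median of 478. How much of the sense value of these rows comes from reads placed on the other strand was not tested.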

How the results depend on the processing

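Of 86 alternative values of the main counts, 73 were equal to the value reported or within 1.5 times of it, and 13 were not. With members at an FPKM of at least 20 (77 rows), the members 2-fold apart were 26 for day 8 over day 0, 6 for ROS at day 8, 12 for WT B over WT A, 4 for transduced over untransduced and 2 for S265D-H1120Y over S265D, and fewer members entered. With the row of highest mean FPKM for each symbol, ROS at day 4 gave 2. A pseudocount of 1 gave 2 for S265D over WT and 2 for S265D-H1120Y over S265D, and the cause was not tested. Leaving out 1 WT sample gave 10 to 15 members for S265A over WT and 2 to 12 for S265D over WT, beside 4 for each with both, and 10 for transduced over untransduced with either left out. The members at an adjusted p under 0.05 by limma were 0 to 3 for S265D over WT. With 1 WT sample left out, the log2 ratio of Gm12603 went from -1.25 to 3.38 for S265A over WT and from -0.75 to 3.88 for S265D over WT, and that of BC134356 from -0.21 to 2.96 for S265D over WT, with the negative value without WT A each time. The 3.38 and 3.88 rest on the pseudocount, since Gm12603 was listed at 0 in WT A. The 3 members at an adjusted p under 0.05 by limma rest on the spread of the day 0 pair, so nothing is read from them. The settings that left out a WT sample from the transduced over untransduced count, and those that left out the mitochondrial rows, were chosen after seeing the data. No paired analysis was possible because the mutants have 1 sample each and the labels letter only the WT samples. The fewest mapped bases behind the highest value of a member were 9108, but values near 0 rest on far fewer, such as 398 for AK199694 in S265D and 0 for Gm12603 in WT A, and conditions with 1 sample have no replicate error.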
